A study of Mus musculus with 20 samples.

Results

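The acyl-CoA thioesterases described here are the 10 genes *Acot1*, *Acot2*, *Acot3*, *Acot4*, *Acot5*, *Acot7*, *Acot8*, *Acot9*, *Acot12* and *Acot13*, out of 16593 genes with a probe on the array. All 18 of their probes were taken, out of 25697 probes, on all 20 arrays. The group was put together because *Acot3* was the gene with the surest genotype difference in liver, so the liver comparison of *Adck2*+/- with WT mice is given below as a description, without a test. The muscle comparison and the comparison of tissues did not enter that choice.

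RNA was measured in liver and in gastrocnemius muscle of male mice of strain B6N, 5 WT and 5 heterozygous *Adck2* knockout (*Adck2*+/-) samples for each tissue. *Adck2* encodes a mitochondrial protein of the aarF domain kinase family, and the mutant mice, raised from mutant embryonic stem cells of a C57BL/6 background, carry 1 disrupted allele in every cell. Age is not settled, being 3 years in the labels and 6 months for the array mice in the methods section. The labels name no treatment, and they number the samples of a group as replicates without saying whether the liver and the muscle sample of a number came from the same mouse. P-values therefore measure the spread between these samples.

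Each array held bead probes whose mean signal was deposited without normalization between arrays, next to a p-value for detection. Between 11626 and 12604 probes per array were detected at a detection p under 0.05, and the median signal of an array ranged from 125.8 to 219. The tissues carried their markers: the muscle fibre genes *Ckm* and *Acta1* had signals of at least 17904 on the muscle arrays and were detected on 0 of 10 liver arrays, and the hepatocyte gene *Ttr* reached 35067 in liver. *Ttr* was also detected on every muscle array, at signals of 159.1 to 2707. *Alb* was detected on 0 of 10 muscle arrays, but its probe was dim in liver itself. That probe read 142.5 to 291.5 on WT and 195.2 to 264.2 on *Adck2*+/- liver arrays, so its absence says little about liver RNA in muscle. The *Adck2* probe was detected on 0 of 5 WT and 3 of 5 *Adck2*+/- liver arrays and on 1 of 5 and 2 of 5 muscle arrays, too few to check the genotype labels. In liver, WT 3 and *Adck2*+/- 1 and 4 stood apart on the first principal component over all genes (scores 30.5, 28.0 and 28.3, against at most 5.87 on the other arrays), and the liver differences of the members are given with and without them.

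Acyl-CoA thioesterases split the thioester bond of an acyl-CoA, releasing a free fatty acid and coenzyme A. They lower the amount of activated fatty acid and free the coenzyme for other reactions in the cytosol, mitochondria and peroxisomes, which in liver bears on fatty acid oxidation and lipid synthesis. The type I enzymes (*Acot1* to *Acot6*) are closely related to each other and several are known targets of the fatty acid sensor PPARα. The type II enzymes (*Acot7* to *Acot13* here) have a different fold, known as the hotdog fold, and do the same reaction.

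The type I genes lie side by side. In RefSeq, *Acot2*, *Acot1*, *Acot4*, *Acot3*, *Acot5* and *Acot6* follow each other in this order on chromosome 12. *Acot13* and *Acot12* lie on chromosome 13, *Acot8* on chromosome 2, *Acot7* on chromosome 4 and *Acot9* on chromosome X. The 250 bases before the start of *Acot1* (chr12:84009252-84009501, plus strand), *Acot4* (chr12:84038129-84038378, plus strand) and *Acot3* (chr12:84051894-84052143, plus strand) are shown in RefSeq's build GRCm38.p6, because these neighbours had the largest liver differences of the family. Capitals mark the letters CCAAT on either strand (ATTGG on the plus strand).
Acot1: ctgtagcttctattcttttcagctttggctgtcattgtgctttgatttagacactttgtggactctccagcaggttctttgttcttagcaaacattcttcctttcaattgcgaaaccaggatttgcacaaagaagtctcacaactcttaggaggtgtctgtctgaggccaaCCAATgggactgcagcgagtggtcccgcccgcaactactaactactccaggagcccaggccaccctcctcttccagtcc
Acot4: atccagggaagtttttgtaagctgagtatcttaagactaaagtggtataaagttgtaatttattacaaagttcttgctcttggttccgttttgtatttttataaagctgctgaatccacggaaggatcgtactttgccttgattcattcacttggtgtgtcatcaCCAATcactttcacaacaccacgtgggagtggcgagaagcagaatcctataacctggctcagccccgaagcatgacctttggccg
Acot3: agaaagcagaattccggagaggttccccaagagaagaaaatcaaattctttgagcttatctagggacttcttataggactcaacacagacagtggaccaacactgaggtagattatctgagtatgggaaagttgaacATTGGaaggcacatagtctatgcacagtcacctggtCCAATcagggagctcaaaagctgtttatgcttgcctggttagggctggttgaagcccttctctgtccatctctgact
With base -1 just before the start, CCAAT stood on the plus strand at -79 to -75 in *Acot1*, -85 to -81 in *Acot4* and -77 to -73 in *Acot3*. *Acot3* held it again on the minus strand, at -113 to -109. These letters were present on either strand in 7 of the 9 family members with an entry in the sequence table and in 34.5% of 27025 promoters of the same length. The letters AGGTCA, which nuclear receptors such as PPARα bind, stood on either strand in *Acot4*, *Acot5* and *Acot12* and in 13.8% of all promoters. A direct repeat of these letters with 1 base between the copies was in 0 of the 9, and in 0.037% of all promoters. The letters TATAAA were in *Acot4* and *Acot9* and in 13% of all promoters.

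Of the 10 genes, 9 were measured in liver and 6 in muscle, since a probe had to be detected on 5 or more of a tissue's 10 arrays. *Acot5*, a peroxisomal member of the chromosome 12 cluster, was detected on 0 of 20 arrays, with signals of 103.3 to 180.6. *Acot3* and *Acot12* were detected on 0 of 10 muscle arrays and *Acot4* on 1 of 10. Where a gene had several kept probes, its brightest probe was taken, and the other probes are named where they read differently. Log2 values below are background-corrected signals, quantile normalized within a tissue unless stated. In these tissue samples, fewer cells of a type and less RNA per cell cannot be told apart.

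*Acot3*, a peroxisomal type I thioesterase of long-chain acyl-CoAs, was higher on every *Adck2*+/- liver array than on every WT liver array. Its deposited signals were 183.8, 166.5, 301.8, 333.8 and 265 in WT 1 to 5 and 557.2, 720.2, 1116, 433 and 475.1 in *Adck2*+/- 1 to 5. The dimmest *Adck2*+/- signal, on an array with a median signal of 134.8, lay above the brightest WT signal, on an array with a median of 187.6. After normalization the log2 values were 7.08, 6.72, 7.33, 7.37 and 6.66 in WT and 8.78, 8.63, 9.36, 8.89 and 8.26 in *Adck2*+/- mice. The groups did not overlap, with means of 7.03 ± 0.33 (SD, n = 5) and 8.78 ± 0.40 (SD, n = 5). The difference was 1.75 on the log2 scale (standard error 0.21), a 3.37-fold higher level. It was 1.79 without WT 3 and *Adck2*+/- 1 and 4, between 1.61 and 1.88 when any array was left out, and 1.06 without background correction. *Acot3* has 1 probe, so no second probe was at hand to read this transcript.

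*Acot1*, the cytosolic type I enzyme, was the other member whose liver genotypes did not overlap. The log2 values of its brighter probe were 12.08, 12.14, 12.46, 12.46 and 11.99 in WT and 13.10, 12.69, 12.96, 12.96 and 12.57 in *Adck2*+/- mice. The lowest *Adck2*+/- array, number 5, lay just above WT 3 and 4, and the difference was 0.63 (standard error 0.14), or 0.57 without the 3 arrays that stood apart. The dimmer probe ran from 6.99 to 8.32 in WT and from 7.16 to 8.88 in *Adck2*+/- liver, overlapping, with a difference of 0.40 (standard error 0.40). Of the *Adck2*+/- arrays, numbers 1 and 4 read 7.20 and 7.16 with the dimmer probe but 13.10 and 12.96 with the brighter one, so the probes did not rank the arrays alike. Both arrays are among the 3 that stood apart. WT 3, the other of these, had the lowest WT value with the dimmer probe (6.99) and the highest with the brighter one (12.46). Without the 3 arrays, in the same normalization, the dimmer probe ran from 7.04 to 8.32 in WT liver. On the remaining *Adck2*+/- arrays it ran from 8.45 to 8.88, without overlap.

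*Acot4*, which splits succinyl-CoA in mouse peroxisomes, read 8.93, 9.16, 9.73, 9.50 and 9.47 in WT and 10.24, 9.86, 9.96, 10.26 and 9.53 in *Adck2*+/- liver. Only *Adck2*+/- 5 fell within the WT range, and the difference was 0.61 (standard error 0.18). Without the 3 arrays that stood apart it was 0.51, and the remaining 3 *Adck2*+/- values then lay above the remaining 4 WT values. Among 8356 genes measured on these 7 arrays, 11.1% did not overlap in either direction. *Acot2*, the mitochondrial enzyme of the same cluster, was near the detection limit in liver. Its kept probe was detected on 2 of 5 WT and 4 of 5 *Adck2*+/- arrays, and its log2 values overlapped, from 4.80 to 6.16 on WT and from 5.37 to 5.78 on *Adck2*+/- arrays (difference 0.25, standard error 0.22, and 0.31 without the 3 arrays).

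**Figure D1:**
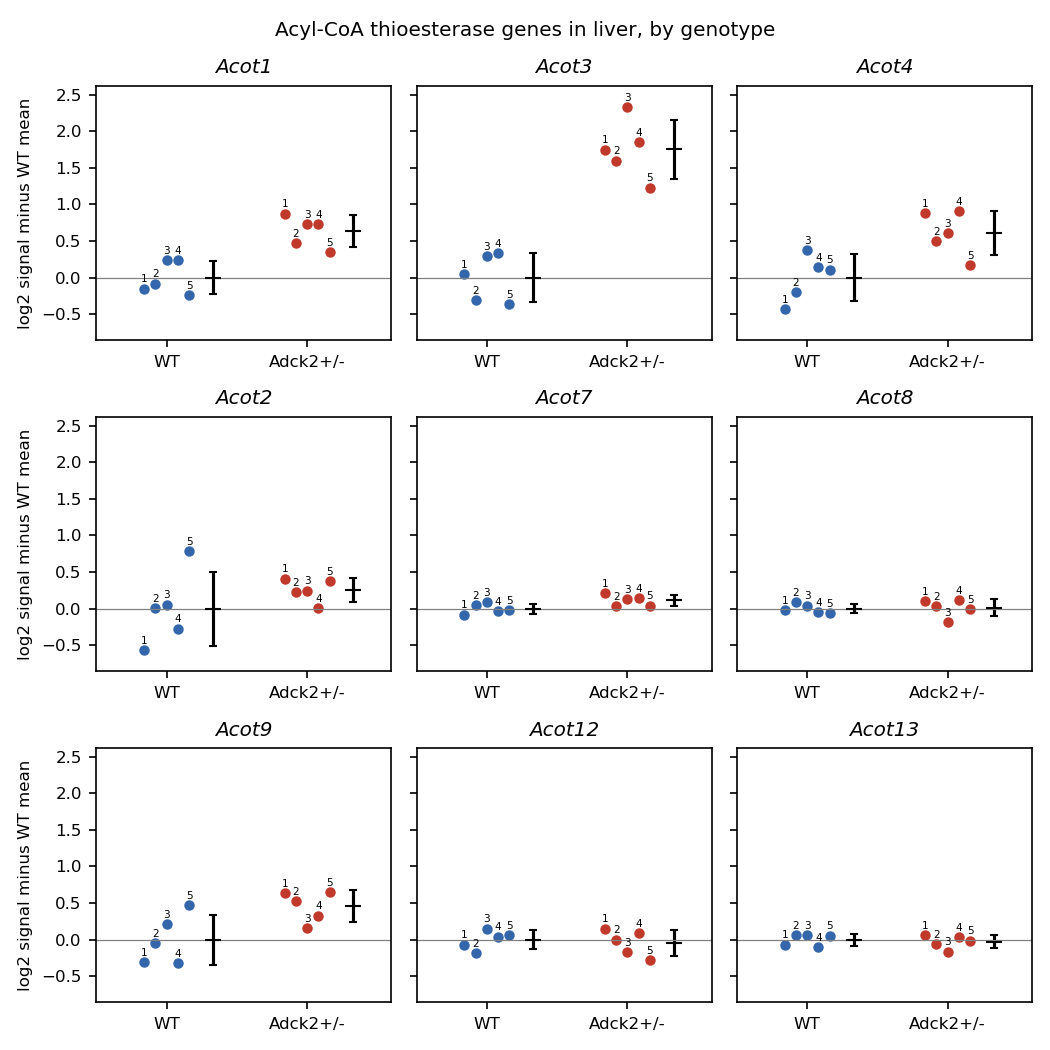
Log2 signal of 9 acyl-CoA thioesterase genes in liver, minus the mean of the WT arrays (vertical axis, log2 units, the same for all panels). Numbered points are the replicates, and bars are the mean and SD of 5 arrays. *Acot3* and *Acot1* are the genes whose 5 *Adck2*+/- points lie above all 5 WT points, by differences of 1.75 and 0.63.

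Among the type II genes, *Acot9*, a mitochondrial enzyme, was dim and detected on 2 of 5 WT arrays and all 5 *Adck2*+/- arrays. Its values were 5.01, 5.28, 5.53, 5.00 and 5.79 in WT and 5.96, 5.84, 5.48, 5.65 and 5.97 in *Adck2*+/- mice, overlapping in *Adck2*+/- 3 and 4, with a difference of 0.46 (standard error 0.17) that was 0.12 without background correction. With their brightest probes, the cytosolic long-chain enzyme *Acot7* differed by 0.11 (standard error 0.09) and the peroxisomal enzyme *Acot8* by 0.01 (standard error 0.10). The other *Acot7* probes gave -0.04, 0.27 and -0.11 (standard errors 0.21, 0.15 and 0.37). The other *Acot8* probes gave 0.14 and 0.23 (standard errors 0.10 and 0.17). *Acot12*, the cytosolic acetyl-CoA hydrolase of liver, ranged from 10.68 to 11.02 in WT and from 10.59 to 11.02 in *Adck2*+/- mice, a difference of -0.04 (standard error 0.12). *Acot13*, a mitochondria-associated thioesterase, differed by -0.03 (standard error 0.10). All of these groups overlapped. Without the 3 arrays that stood apart the differences were 0.51 for *Acot9*, 0.088 for *Acot7*, -0.040 for *Acot8*, which turned its sign, -0.11 for *Acot12* and -0.066 for *Acot13*. Scaling the arrays to a common median moved the median of all 8484 genes from 0.01 to 0.16, and *Acot12* and *Acot13* then read 0.13 and 0.12, so their direction depended on the scaling, and relative to that median both stayed below it.

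Over the 9 members measured in liver, the median difference was 0.25, and 0.01 over all genes. The *Adck2*+/- and WT arrays did not overlap for 2 of 9 members, as for 1.8% of 8484 genes, and 7 of 9 differences lay above 0, as did 52.8% over all genes. Because *Acot3* was chosen on this contrast and its neighbours with it in view, the counts describe the liver arrays and support nothing further. Of all genes tested in liver 1 was called at an adjusted p under 0.05 (0.0118%). That gene is *Acot3*, which was chosen for having the surest difference in this same fit, so the call is no test of it. Among the cell type markers, the hepatocyte list (8 of 9 genes measured) averaged 13.36 to 13.49 on the log2 scale on WT arrays and 13.31 to 13.40 on *Adck2*+/- arrays. Of 8 adipocyte markers, the 2 measured were *Pck1* and *Cidec*, whose mean was 8.60 to 9.54 in WT and 7.03 to 8.58 in *Adck2*+/- liver, without overlap. *Pck1* also serves gluconeogenesis in hepatocytes. The 8 measured macrophage and Kupffer cell genes averaged 9.35 to 10.39 on WT liver arrays and 9.21 to 10.16 on *Adck2*+/- ones. Their part in the differences of the thioesterases was not tested.

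The arrays of 1 genotype differed among themselves, and some members moved together there. Deviations from the genotype mean were compared over the 10 liver arrays, which share their normalization. Across 36 pairs of members the median Pearson r was 0.32, from -0.62 (*Acot3* with *Acot9*) to 0.86 (*Acot2* with *Acot9*, Spearman rho 0.88). *Acot1* and *Acot3* had an r of 0.77 (rho 0.71), which was 0.88 over the 7 arrays that did not stand apart and 0.58 without the 2 arrays with the most extreme *Acot1*. *Acot4* followed *Acot12* (r = 0.84, rho 0.85) and *Acot1* (0.77, rho 0.76), but over the 7 arrays these values fell to 0.66 and 0.56. *Acot3* and *Acot4* had an r of 0.48 (rho 0.53). The highest values of both *Acot2* and *Acot9* in WT liver were those of WT 5, and these dim genes were each detected on fewer than 10 liver arrays.

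The genes most like *Acot3* within genotypes were outside the family. The 5 highest of the 8483 other genes were *Gsta1* (r = 0.94, rho 0.96), a glutathione transferase, *Armcx3* (0.94, rho 0.94), a mitochondrial outer membrane protein, *H2-Eb1* (0.89, rho 0.90), a class II histocompatibility antigen, *Zbtb46* (0.89, rho 0.81), a transcription factor of dendritic cells, and *Axl* (0.89, rho 0.82), a receptor tyrosine kinase. Over the 7 arrays that did not stand apart their r lay between 0.91 and 0.95, and without the 2 arrays with the most extreme *Acot3* between 0.73 and 0.91. The genotypes overlapped for all 5 of them, with log2 differences of 0.19, -0.21, 0.46, 0.22 and 0.16. *Acot1* ranked 50 in this order and *Acot4* 692. These genes were picked for a high value among all genes on 10 arrays, so the values are a description.

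**Figure D2:**
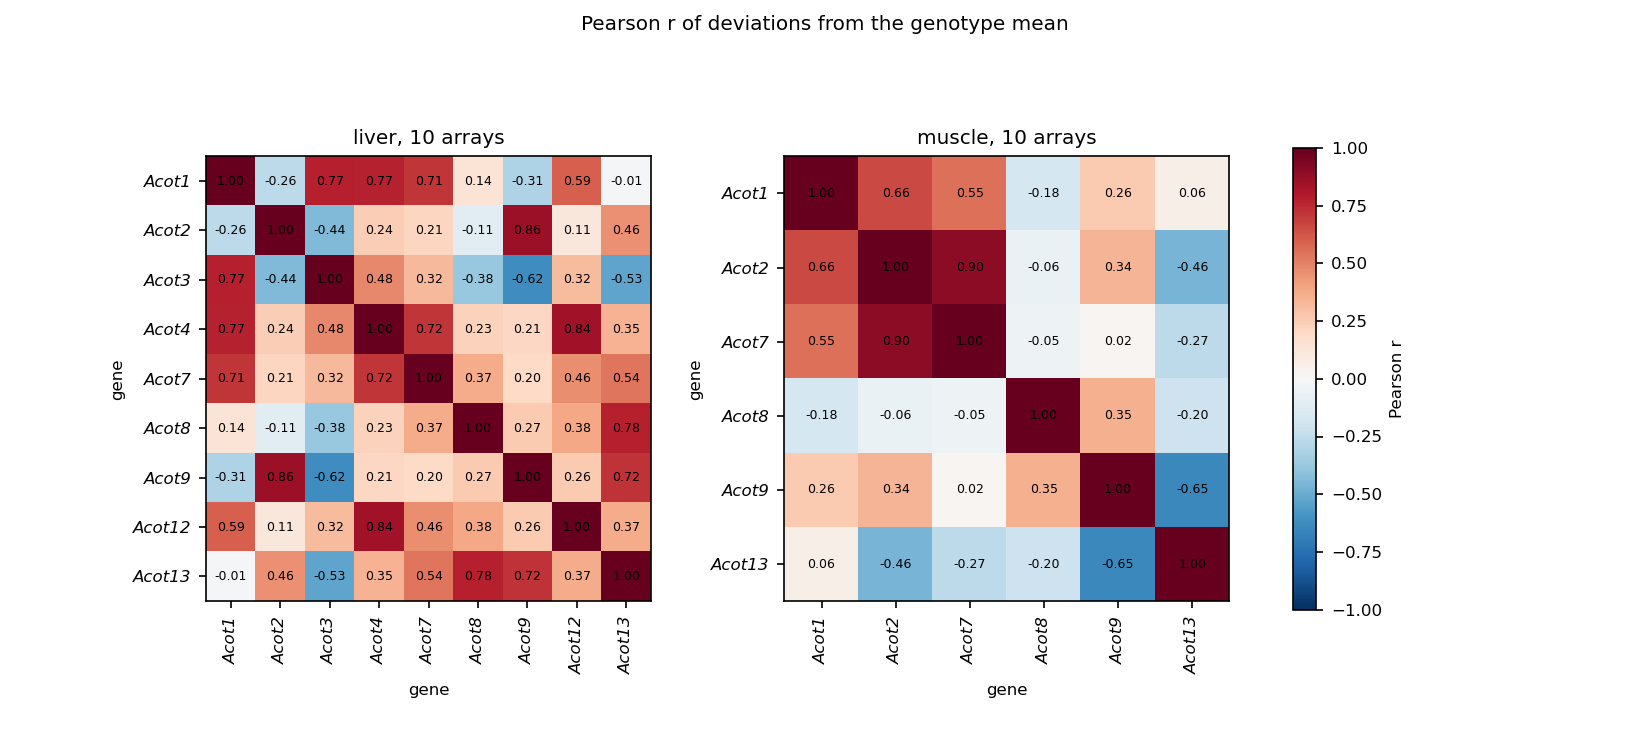
Pearson r between acyl-CoA thioesterase genes, of deviations from the genotype mean over 10 liver arrays (left) and 10 muscle arrays (right). Red cells are positive and blue cells negative. In liver *Acot1* has an r of 0.77 with both *Acot3* and *Acot4*, and in muscle the highest r is 0.90, between *Acot2* and *Acot7*.

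In skeletal muscle, 0 of the 6 measured members passed an adjusted p of 0.05 in the limma fit, and 1, *Acot13*, passed an unadjusted p of 0.05. Over all 8424 genes tested in muscle, 1.89% were called and 22.3% had an unadjusted p under 0.05. The genotypes overlapped for all 6 members, and they did not overlap for 6.23% of all genes. The median difference of the 6 members was -0.18, and -0.01 over all genes, with 2 of 6 above 0, beside 47.8% of all genes.

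*Acot13* read 13.47, 13.27, 13.19, 13.29 and 13.28 in WT and 13.04, 12.36, 12.53, 13.11 and 13.23 in *Adck2*+/- muscle. The WT arrays lay close together, whereas *Adck2*+/- 2 and 3 were well below them and *Adck2*+/- 5 was within their range. The difference was -0.45 (standard error 0.17, 95% interval -0.81 to -0.08), with an adjusted p of 0.146 in limma. The adjusted p ran from 0.0629 to 0.305 over all alternatives tried. *Acot7* differed by -0.25 (standard error 0.12, adjusted p = 0.231), its WT arrays lying between 10.89 and 11.35 and its *Adck2*+/- arrays between 10.65 and 11.04. Its 4 probes read differently: tested by themselves they gave -0.25, -0.20, -0.56 and 0.05, and the third had an adjusted p of 0.0747 over all probes. The deposited value table assigns the signals of 3 of these *Acot7* probes to each other's names, so which of the dimmer probes each signal belongs to is not settled, whereas the brightest keeps its name in both tables.

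*Acot2* in muscle was read by another probe than in liver, detected on all 10 muscle arrays. Its values were 6.40, 6.43, 5.30, 6.21 and 6.04 in WT and 6.70, 7.13, 6.89, 5.67 and 6.38 in *Adck2*+/- mice. *Adck2*+/- 1, 2 and 3 lay above every WT array and *Adck2*+/- 4 below all but WT 3, which left a difference of 0.47 (standard error 0.28, adjusted p = 0.343). The probe that read *Acot2* in liver gave 0.07 (standard error 0.15) in muscle. *Acot1* read 7.75, 7.26, 5.82, 7.90 and 7.17 in WT and 7.65, 7.65, 7.34, 7.32 and 7.19 in *Adck2*+/- mice, where WT 3 stood far below the others. The difference was 0.25 (standard error 0.32, adjusted p = 0.687) and turned to -0.091 without WT 3 (adjusted p = 0.811). *Acot8* differed by -0.19 (standard error 0.11, adjusted p = 0.331), but its dimmest probe by 0.25 (standard error 0.17). *Acot9* differed by -0.16 (standard error 0.14, adjusted p = 0.526).

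The intervals show what 5 arrays a group left undecided in muscle. They reached from -0.46 to 0.95 for *Acot1* and from -0.14 to 1.09 for *Acot2*, so a difference of the size seen for *Acot1* in liver lies within both. For *Acot8* the interval was -0.44 to 0.05 and for *Acot9* -0.47 to 0.14. The difference between the liver and the muscle genotype effects was not tested, because the liver contrast chose the genes.

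The muscle arrays varied in the markers of other tissues. The 6 measured hepatocyte markers averaged 5.66 to 8.90 on the log2 scale on WT and 5.80 to 10.17 on *Adck2*+/- muscle arrays. The highest value was that of *Adck2*+/- 4. *Alb*, whose probe was dim in liver too, was not detected on any. The 4 measured adipocyte markers averaged 5.51 to 8.31 in WT and 6.32 to 9.38 in *Adck2*+/- muscle. WT 3, the array with the lowest *Acot1*, was at 8.01 and 8.19 in these lists, within the range of the other arrays. The 3 measured brown adipocyte markers averaged 8.38 to 10.82 in WT and 7.91 to 11.89 in *Adck2*+/- muscle. Their lowest values of all 10 arrays were 7.91 and 8.05 on *Adck2*+/- 2 and 3, the arrays with the lowest *Acot13*. *Adck2*+/- 4 and WT 2 came next at 8.29 and 8.38, but their *Acot13* was 13.11 and 13.27. The part of these markers in the values of the thioesterases was not tested.

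**Figure D3:**
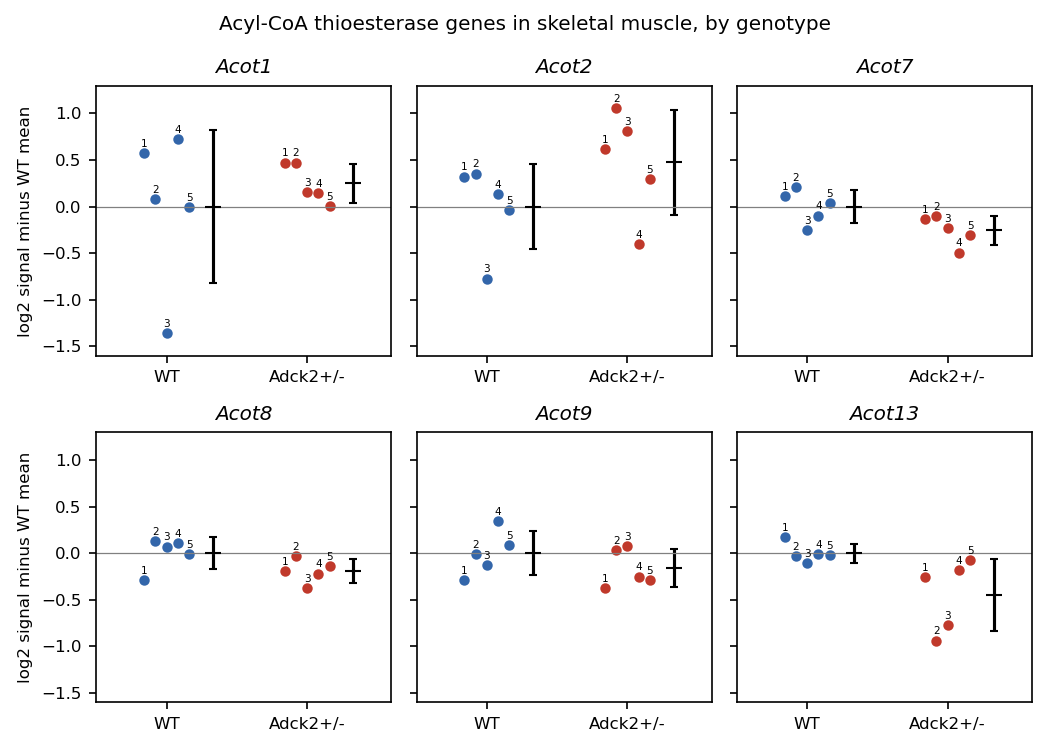
Log2 signal of 6 acyl-CoA thioesterase genes in gastrocnemius muscle, minus the mean of the WT arrays (vertical axis, log2 units, the same for all panels). Numbered points are the replicates, and bars are the mean and SD of 5 arrays. All groups overlap. WT 3 is lowest for *Acot1*, and *Adck2*+/- 2 and 3 are lowest for *Acot13*.

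Within genotypes in muscle, the median r over 15 pairs of members was 0.02, from -0.65 (*Acot9* with *Acot13*) to 0.90 (*Acot2* with *Acot7*, rho 0.84, and 0.64 without the 2 arrays with the most extreme *Acot2*). *Acot1* and *Acot2*, neighbours on chromosome 12, had an r of 0.66. WT 3 was the lowest of the WT arrays for *Acot1*, *Acot2* and *Acot7* alike.

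Muscle was compared with liver within each genotype. All 20 arrays were normalized together for this, and a gene was called at an adjusted p under 0.05 in a limma fit of the 4 groups. Most genes on the array differ between these tissues: 78.2% of 9563 genes were called between WT muscle and WT liver, and 79.4% between the *Adck2*+/- tissues. Among the 9 members tested, 8 were called in WT and 7 in *Adck2*+/- mice, a share close to that background. In WT, 3 members were higher in muscle and 5 lower (41.2% and 36.9% of all genes), and in *Adck2*+/- mice 2 were higher and 5 lower (40.2% and 39.2%). *Acot3*, *Acot4* and *Acot12* passed the detection filter through liver alone, so a lower level in muscle was built into their selection, and these 3 are among the 5 lower members of each genotype. Of the other 6 members, 5 were called in WT and 4 in *Adck2*+/- mice. Scaling to a common median moved the median of all genes between the *Adck2*+/- tissues from 0.02 to -0.20, and from 0.08 to 0.01 between the WT tissues. Levels of different genes are not compared, since probes differ in brightness.

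*Acot12*, the cytosolic acetyl-CoA enzyme, had WT liver signals of 1034 to 2365 and WT muscle signals of 121.7 to 142.3, the latter on no array above the detection limit. Its level was at least 40.8-fold lower in WT muscle than in WT liver and at least 39.5-fold lower in the *Adck2*+/- tissues, bounds set against the dimmest detected signal of each muscle array. *Acot4* was at least 14.6-fold lower in WT muscle, and in *Adck2*+/- muscle, where 1 of 5 arrays detected it, the fitted difference was -4.87 (standard error 0.17). *Acot3* was at least 2.99-fold lower in WT muscle than in WT liver. For the *Adck2*+/- tissues the bound of *Acot3* was 9.77-fold, a value that includes the high liver arrays by which the gene was chosen. These sizes depended on the background correction: without it the log2 differences in WT were -3.46 for *Acot12*, -2.23 for *Acot4* and -0.82 for *Acot3*, and in *Adck2*+/- mice -3.49, -2.65 and -1.86, so the bounds hold for corrected signals. The calls of these 3 genes in the counts above were built in by the detection filter, so their adjusted p-values are not given.

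*Acot1* was detected on all 20 arrays with its brighter probe and was lower in muscle by 26.3-fold in WT (log2 difference -4.72, standard error 0.27, adjusted p = 4.97e-13) and by 33.5-fold in *Adck2*+/- mice (-5.07, standard error 0.27). In WT the difference was -3.79 without background correction and -3.65 with the mean of both probes. Its WT signals were 2507 to 6733 in liver and 163 to 420.4 in muscle. *Acot8*, the peroxisomal type II enzyme, was 2.64-fold lower in WT muscle (-1.40, standard error 0.10, adjusted p = 4.93e-11) and 3.04-fold lower in *Adck2*+/- muscle. A second *Acot8* probe gave -1.63 in WT, while the dimmest gave 0.13 (standard error 0.18), with overlapping arrays.

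*Acot13* was 2.54-fold higher in WT muscle (log2 difference 1.35, standard error 0.14, adjusted p = 2.05e-08) and 1.86-fold higher in *Adck2*+/- muscle (0.90, standard error 0.14, adjusted p = 7.23e-06), without overlap in either. Under scaling to a common median these differences were 1.05 and 0.39, the latter with an adjusted p of 0.0495. *Acot9* was 2.50-fold higher in WT muscle (1.32, standard error 0.16, adjusted p = 1.46e-07) and 1.64-fold higher in *Adck2*+/- muscle (0.71, standard error 0.16), differences that were 0.42 and 0.23 without background correction. *Acot2* depended on its probe. The probe that stood for it gave 0.33 (adjusted p = 0.118) in WT and 0.16 (adjusted p = 0.452) in *Adck2*+/- mice, whereas the other, detected on all muscle and 0 of 10 liver arrays, was at least 1.72-fold higher in WT muscle and at least 2.49-fold higher in *Adck2*+/- muscle. That second probe passed the detection filter through muscle alone, so its direction was built in and places *Acot2* on neither side.

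With its brightest probe, *Acot7* was near even between the tissues. It was 0.25 higher in WT muscle (standard error 0.11, adjusted p = 0.0376), with overlapping arrays, and differed by -0.12 (adjusted p = 0.290) in *Adck2*+/- mice. The WT call was lost under scaling to a common median (0.11, adjusted p = 0.618), with the replicate block (adjusted p = 0.0799), with WT arrays alone in the fit (adjusted p = 0.0580) and without any of 6 WT arrays. Its other probes, tested by themselves in limma over all probes, gave 0.74, 0.86 and 0.40 in WT muscle. Their adjusted p-values were 0.00166, 8.03e-05 and 0.226, and the arrays did not overlap for the 0.86. In *Adck2*+/- mice the same probes gave 0.58, 0.03 and 0.57. The adjusted p-values there were 0.00928, 0.866 and 0.0877, and the arrays did not overlap for the 0.58. The near-even reading therefore belongs to the brightest probe.

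**Figure D4:**
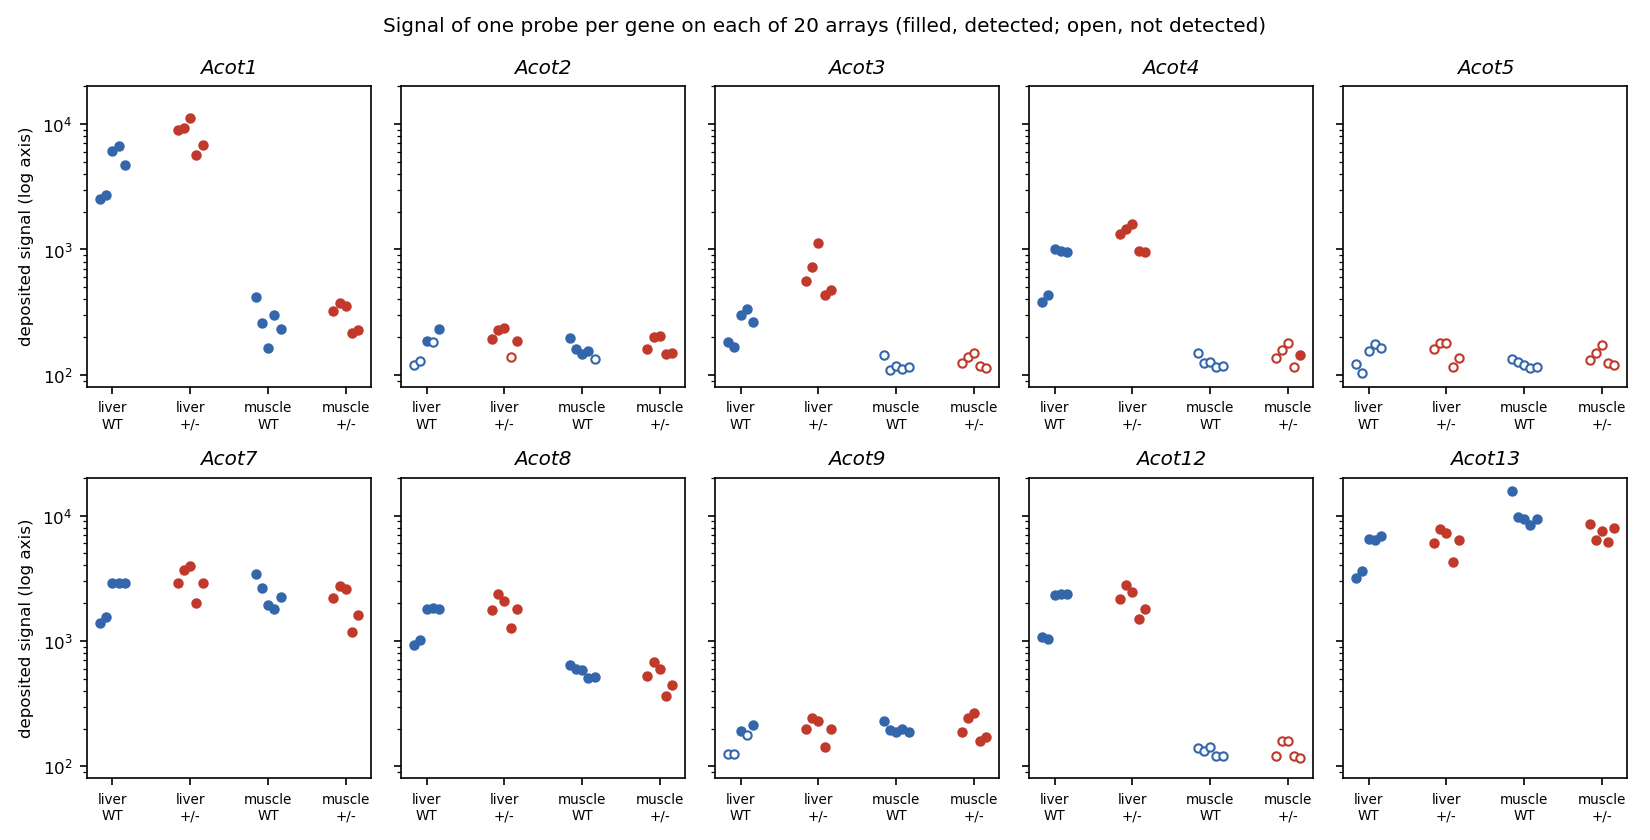
Deposited signal (vertical axis, logarithmic) of 1 probe for each of the 10 acyl-CoA thioesterase genes on the 5 arrays of each tissue and genotype. Filled points were detected at a detection p under 0.05 and open points were not. *Acot12* and *Acot3* are open on all 10 muscle arrays, *Acot5* on all 20, and *Acot1* is far brighter in liver than in muscle.

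The other genes of acyl-CoA handling were counted in the same fits. In liver 0 genes of 6 lists were called. Of 13 measured other thioesterases and CoA diphosphatases, *Acnat2*, an acyltransferase, differed by 0.82 (adjusted p = 0.576) and *Acot11*, a thioesterase of brown fat, by 0.54 (adjusted p = 0.410). *Acot11* read 6.64, 6.81, 6.40, 6.61 and 6.73 in WT and 7.50, 7.06, 7.03, 7.35 and 6.94 in *Adck2*+/- liver, without overlap. The median of the list was -0.03.

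Of 14 acyl-CoA synthetases in liver the median was 0.08, with *Slc27a1* at 0.51 and *Acsl3* at 0.42. The 6 carnitine acyltransferases and carriers had a median of 0.06, with *Crat* at 0.47 and *Cpt1b* at 0.22. Among 10 genes of coenzyme A synthesis and breakdown the median was 0.15, with *Pank3*, a pantothenate kinase, at -0.59 and *Slc25a16* at -0.37. The 7 binding proteins of acyl-CoA and fatty acids had a median of 0.03, with *Fabp5* at -0.99 and *Acbd5* at 0.54. None of these genes was called, and the genotypes overlapped for each of them.

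Of 34 measured PPARα targets, a list that overlaps in biology with the type I thioesterases, 0 were called in liver. The median was 0.03, and 23 lay above and 11 below 0, beside 52.8% of all genes above 0. The largest differences were those of *Pdk4*, a kinase that inhibits pyruvate dehydrogenase, at 1.15 (standard error 0.27, adjusted p = 0.399) and *Cyp4a14*, a fatty acid hydroxylase, at 1.13 (standard error 0.39, adjusted p = 0.558). *Pdk4* read 8.40, 8.25, 8.36, 9.36 and 9.05 in WT and 9.37, 10.03, 10.60, 9.59 and 9.58 in *Adck2*+/- liver. *Cyp4a14* read 13.44, 13.34, 13.35, 13.41 and 11.25 in WT and 14.52, 13.94, 13.93, 14.36 and 13.71 in *Adck2*+/- liver. Both were separated with the *Adck2*+/- arrays higher, as were 0.695% of all genes. *Creb3l3*, named after its values were seen, was separated lower (-0.32), as were 1.11% of all genes.

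In muscle, 1 gene of the lists was called. *Abcd2*, a peroxisomal transporter of fatty acyl-CoA among 28 measured PPARα targets, rose from 7.62, 7.65, 7.17, 7.19 and 7.24 in WT to 7.92, 8.07, 7.92, 7.95 and 8.10 in *Adck2*+/- mice (difference 0.62, standard error 0.12, adjusted p = 0.0354). Over all genes 1.23% were called higher. The call was lost when any of WT 3, 4 and 5 or *Adck2*+/- 1, 2, 3 and 4 was left out, under scaling to a common median and with the replicate block (adjusted p = 0.108). The median of the list was 0.24, with 23 of 28 above 0, beside 47.8% of all genes. The genotypes did not overlap for 4 of the 28, all higher in *Adck2*+/- mice, beside 6.23% of all genes in either direction. *Acadl*, named after its values were seen and the long-chain acyl-CoA dehydrogenase of this list, differed by 1.12 (adjusted p = 0.144), its *Adck2*+/- arrays all above the WT arrays and WT 3 far below the rest. *Ppt1*, a lysosomal palmitoyl-protein thioesterase, differed by 0.68 (adjusted p = 0.0656) and *Nudt8* by -0.45 (adjusted p = 0.230) among 12 other thioesterases and CoA diphosphatases, whose median was 0.19.

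The remaining muscle lists held 0 calls. The largest differences were *Slc27a3* at -0.41 and *Acss2* at 0.37 among 11 synthetases (median 0.02), *Crat* at -0.35 and *Slc25a20* at 0.26 among 5 carnitine acyltransferases and carriers (median 0.20), *Slc25a42* at -0.45 and *Pank1* at 0.37 among 9 genes of coenzyme A synthesis (median 0.21), and *Dbi* at -0.58 and *Fabp5* at -0.36 among 7 binding proteins (median -0.06). *Dbi* encodes the acyl-CoA-binding protein and *Crat* carnitine acetyltransferase.

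**Figure D5:**
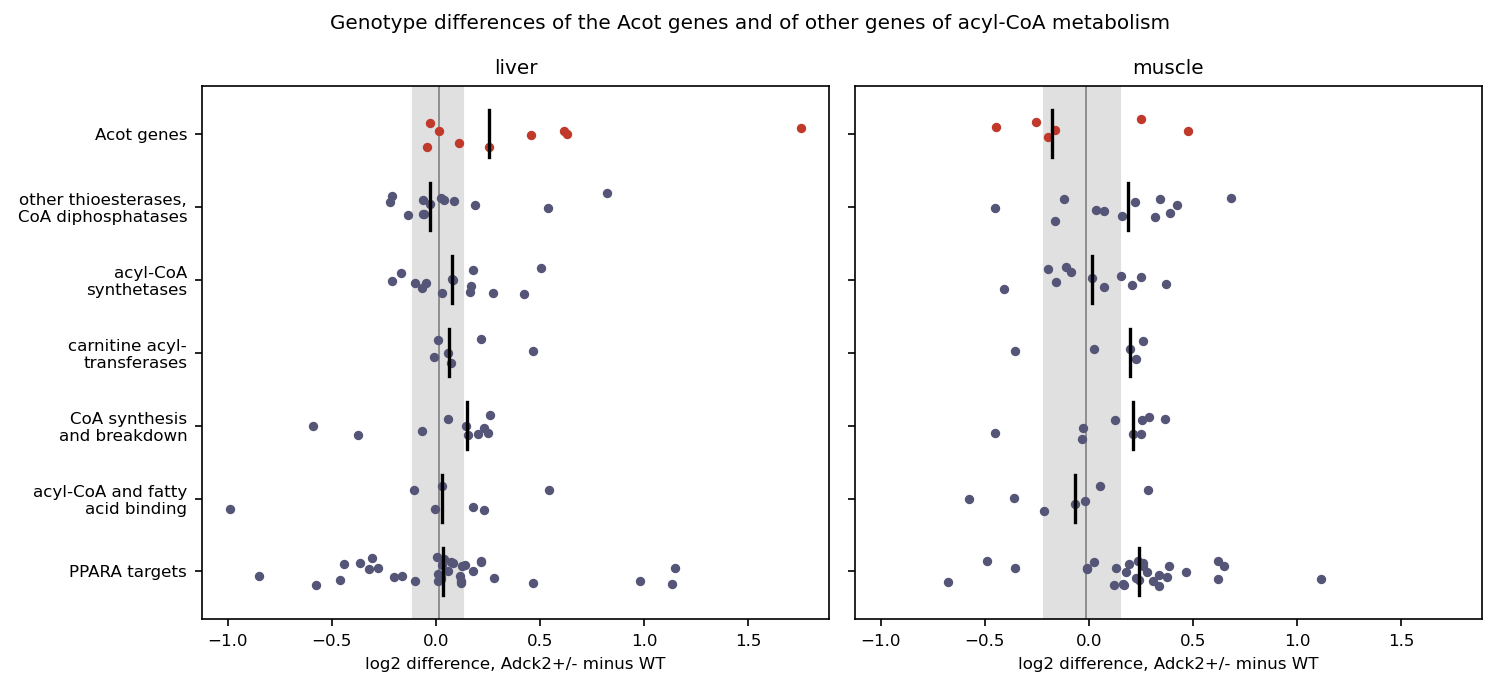
Log2 difference of *Adck2*+/- minus WT (horizontal axis) for each measured acyl-CoA thioesterase (top row, red) and for each measured gene of 6 lists of acyl-CoA metabolism, in liver (left) and muscle (right). Short vertical bars are list medians, the grey line is the median of all genes and the grey band holds their middle 50%. In liver the thioesterase median is 0.25, with *Acot3* at 1.75, and in muscle it is -0.18.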

How the data were processed

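Illumina mouse bead arrays, 20 in all and 5 for each genotype and tissue, measured RNA of liver and gastrocnemius muscle, with groups taken from the labels. The methods section names another maker's chip, whereas labelling kit and probe names are Illumina's. The intensity values are mean probe signals that the authors deposited on a linear scale, without normalization between arrays. The detection p-values beside them, per the file headers, were deposited for each probe and array. How the authors treated background is not given in the sources used here. A value table deposited as well holds, for 2165 of 25697 probes, the signals of another probe and served only as an alternative. Probes were named through the platform annotation (23978 with a gene, 1719 without, which were left out of the tests).

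Statistics were computed in R 4.3.3 (limma 3.58.1) and figures drawn in Python 3.11 (matplotlib 3.10.9). Limma's neqc removed the background estimated from detection p-values, added an offset of 16, applied quantile normalization and took log2, within a tissue or over all 20 arrays. A probe needed a detection p below 0.05 on 5 or more of the 10 arrays of a tissue (of either tissue for the joint fit), and the brightest stood for its gene. The group contrasts came from limma's lmFit and eBayes, with Benjamini-Hochberg adjustment across all genes. The steps were tested on simulated data. A fold against a group with no detected array is a bound, set on each of its arrays against the dimmest detected signal or, where higher, the probe's own value.

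The members and lists were chosen with earlier results of these data known. All members were named, and of each list the called genes (at most 4) or else the 2 with the largest difference, the 5 genes most like *Acot3*, and the tissue markers. The number of arrays limits the precision. Alternatives covered background, normalization, filter, probe choice, table, pairing, spread estimate and the methods' t-test. They also left out the liver arrays that stood apart, the muscle arrays WT 2 and *Adck2*+/- 5, and each array in turn.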

Additional observations from a re-analysis of the deposited data

Results flagged for a closer look

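Of 30 groups of 5 arrays (15 measured gene and tissue combinations in each genotype), 0 held an array farther from the rest than the 95% critical value of Dixon's test, which chance alone passes in about 1 of 20 groups. WT 3, the lowest muscle array for *Acot1*, did not pass it.

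2 signals came from probes that the detection filter left out of the muscle comparison. The dimmer *Acot1* probe was detected on 2 of 5 *Adck2*+/- muscle arrays and on 0 of 5 WT muscle arrays, at signals of 153.4 and 200.5 where detected. The *Acot4* probe was detected on 1 of 5 *Adck2*+/- muscle arrays, replicate 5, at a signal of 144.1, and on 0 of 5 WT muscle arrays. On other *Adck2*+/- arrays the *Acot4* probe had signals of up to 179.6 without being detected.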

How the results depend on the processing

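The count of thioesterase genes called in muscle stayed 0 under every alternative except the methods' t-test, paired by replicate number, which gave 2 (*Acot7* and *Acot13*) at an unadjusted p of 0.05, beside 16.8% of all genes, and 0 after adjustment. The *Acot3* difference in liver moved to 1.06 without background correction and ranged from 1.61 to 1.88 with arrays left out. The count of non-overlapping genes in liver was 1 with the mean of probes, where *Acot1* was lost, and 2 to 3 with arrays left out. With arrays left out, 7 to 9 genes were called between the WT tissues and 7 to 8 between the *Adck2*+/- tissues. *Acot1* in muscle ranged from -0.091 (without WT 3) to 0.43 (without WT 4), and *Acot7* between the *Adck2*+/- tissues to 0.27 with the mean of probes. *Acot2* between the tissues ran from 0.19 to 1.54 (WT) and from 0.11 to 1.99 (*Adck2*+/-), since another of its probes became the brightest when single liver arrays were left out.

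Whether replicate numbers pair the samples is not settled. Between the genotypes, 1 of 5 same-numbered pairs in each tissue correlated above 0.1. Between liver and muscle it was 2 of 5 in WT and 0 of 5 in *Adck2*+/- mice, and so few pairs cannot decide it. With the numbers as a replicate block, 0 muscle thioesterases and 0 muscle genes in all were called, against 159 without it. *Acot3* in liver then read 1.75, and 7 thioesterases were called between the tissues in each genotype. Over all muscle genes the count also went to 310 with median scaling and 70 without the detection filter. It was 315 with the mean of probes, 637 with each probe by itself and 738 without WT 2 and *Adck2*+/- 5. With each array left out it ran from 14 to 703. On the first principal component in muscle, WT 2 (4.76) was the WT array nearest the *Adck2*+/- side. *Adck2*+/- 5 (-9.62) was the *Adck2*+/- array nearest the WT side, so leaving out both widens the genotype difference by choice. Of the other lists, liver had 0 calls throughout. In muscle the 1 call became 2 without background correction or with a trended, robust spread estimate, 0 with median scaling or the block, 6 with the mean of probes, 8 with each probe by itself, 8 without WT 2 and *Adck2*+/- 5, and 0 to 4 with each array left out. Alternatives for the lists were added after the data were seen. Of the recomputed values of single genes, 742 kept their call and direction or, in liver, moved by less than the replicate SD (which let *Acot8*, *Acot12* and *Acot13*, all near 0, change sign), 2 reversed, 6 moved beyond the replicate spread, 25 gained a call and 10 lost one. The limits are the number of arrays, signals near the detection limit for *Acot2* and *Acot9* in liver, and probes of near-identical neighbouring genes, whose cross-hybridization was not tested.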
